A study of Mus musculus with 2 samples.

Results

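Pseudogenes are annotated copies of genes that have lost, or are thought to have lost, the ability to make the original protein. In the adrenal glands examined here, 157 of 13525 annotated pseudogenes had at least 3 long reads in each of 2 libraries. They were chosen by those read counts, from genes whose annotated type ends in pseudogene, and Gm15459 (3733 reads in replicate 1 and 2011 in replicate 2) was left out of the list. A further 527 pseudogenes had a read in either library but missed the minimum, and 12840 had none. RNA came from adrenal glands of female mice of the cross B6CASTF1/J (offspring of a C57BL/6J and a CAST/EiJ parent) aged 2 months, with no treatment named, and 2 libraries, labelled biological replicates 1 and 2, form 1 group. The biosample labels number the animals differently, the library labels number them alike and 1 donor identifier covers both, so the differences between libraries given here may be technical. The defining markers of the adrenal cortex and of chromaffin cells were all detected. So were all listed markers of adipocytes (4), macrophages (3), red blood cells (2), endothelium (3) and fibroblasts (3). Of the kidney markers, 0 of 3 reached 3 reads in each library.

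Processed pseudogenes arise when a spliced messenger RNA is copied back into the genome, so they lack the introns of the gene they came from, the parent. Unprocessed pseudogenes arise by duplication of a stretch of DNA and can keep exons and introns. Genes that are strongly transcribed in the germ line, such as those of ribosomal proteins and Gapdh, have left many processed copies in mammalian genomes. In long-read sequencing 1 read is counted as 1 transcript, and a read from a young copy can differ from its parent by few bases or none.

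Of the 157 pseudogenes, 117 were processed and 17 transcribed processed, the latter being copies with annotated evidence of transcription. Another 9 were transcribed unprocessed, 8 unprocessed, 4 polymorphic (intact in some strains) and 2 carried the bare type pseudogene. None of the immunoglobulin, T cell receptor or unitary types reached the minimum. The number per type is a small share of those annotated, from 0.303% of 2642 unprocessed to 5.74% of 296 transcribed processed pseudogenes.

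Coding sequence of parents is shown first beside that of their pseudogenes, so that their likeness can be set beside the read counts. All windows are 5′ to 3′ on the strand of the gene, from GENCODE M21 transcripts on build mm10, and capitals mark bases that differ from the parent. Apart from the first window of Ppia, each is the stretch within 1 exon with the most differing positions, so it shows more differences than the rest of the copy. Ppia encodes cyclophilin A, a protein-folding enzyme, and the first 60 coding bases of Gm10123, the pseudogene with the most reads, match it fully.
Ppia (chr11:6415911-6415970, plus strand): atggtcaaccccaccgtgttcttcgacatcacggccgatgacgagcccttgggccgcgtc
Gm10123 (chr9:96895658-96895717, plus strand): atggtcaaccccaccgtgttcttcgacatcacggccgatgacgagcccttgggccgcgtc

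Gapdh encodes a central enzyme of glycolysis. In the window with the most differing positions over the 5 copies with reads, 3 copies showed no difference from it and 2 showed 1 each. Gm12033, among the 3, had 1 substitution elsewhere in the coding sequence.
Gapdh (chr6:125162975-125163034, minus strand): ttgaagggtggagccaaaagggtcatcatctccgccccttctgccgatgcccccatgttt
Gm12671 (chr4:91852283-91852342, minus strand): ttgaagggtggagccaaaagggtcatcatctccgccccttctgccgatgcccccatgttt
Gm12033 (chr11:20335627-20335686, minus strand): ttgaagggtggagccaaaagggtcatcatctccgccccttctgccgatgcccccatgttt
Gm5559 (chr5:95862041-95862100, plus strand): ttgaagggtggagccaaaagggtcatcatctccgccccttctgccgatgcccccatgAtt
Gm7336 (chr7:51747024-51747083, plus strand): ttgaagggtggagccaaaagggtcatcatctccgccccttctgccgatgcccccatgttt
Gm13394 (chr2:28934223-28934282, minus strand): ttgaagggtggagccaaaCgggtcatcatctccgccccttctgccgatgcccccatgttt

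Rpl21 encodes a protein of the large ribosomal subunit. Its 3 copies with reads shared 1 difference from it in the window shown, and Rpl21-ps15 had a further one.
Rpl21 (chr5:146835640-146835699, plus strand): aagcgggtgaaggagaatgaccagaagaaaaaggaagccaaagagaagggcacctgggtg
Rpl21-ps15 (chrX:151215272-151215331, minus strand): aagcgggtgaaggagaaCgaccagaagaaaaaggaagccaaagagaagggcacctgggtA
Gm13370 (chr2:24986302-24986361, plus strand): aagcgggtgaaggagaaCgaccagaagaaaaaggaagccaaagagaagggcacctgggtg
Gm10163 (chr9:88391155-88391214, plus strand): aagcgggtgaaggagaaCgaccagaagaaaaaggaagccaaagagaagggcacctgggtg

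Another 3 pairs are less alike. Cyp21a1 encodes steroid 21-hydroxylase of the adrenal cortex and Cyp21a2-ps is its duplicated copy, with 6 differences over 90 bases. Xpot encodes the exporter of transfer RNA from the nucleus, and its processed copy Gm7389 differed at 6 of 60 bases. Rps4x encodes a protein of the small ribosomal subunit, and Rps4l differed from it at 17 of 60 bases.
Cyp21a1 (chr17:34801795-34801884, minus strand): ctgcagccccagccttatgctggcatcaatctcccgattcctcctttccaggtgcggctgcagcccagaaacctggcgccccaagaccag
Cyp21a2-ps (chr17:34719837-34719926, minus strand): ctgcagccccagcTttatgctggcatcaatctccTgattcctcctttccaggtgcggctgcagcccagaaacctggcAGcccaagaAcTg
Xpot (chr10:121602313-121602372, minus strand): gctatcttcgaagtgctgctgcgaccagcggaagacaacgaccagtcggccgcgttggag
Gm7389 (chr8:3996952-3997011, plus strand): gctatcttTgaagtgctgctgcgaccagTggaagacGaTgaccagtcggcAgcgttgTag
Rps4x (chrX:102187943-102188002, minus strand): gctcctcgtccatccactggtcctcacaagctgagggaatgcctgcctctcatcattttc
Rps4l (chr6:148354791-148354850, plus strand): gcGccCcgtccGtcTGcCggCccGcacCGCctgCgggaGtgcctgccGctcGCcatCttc

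The pseudogenes with reads were near-copies of their parents. A protein-coding gene matching at least 50% of the pseudogene's transcript was found for 147 of the 157, and the best matches were 123 coding genes. The best match is called the parent here, although it need not be the gene of origin. Their median identity was 99.76%, with quartiles of 99.4% and 100%. Of the 147, 45 were identical over the matched stretch, 124 were at 99% or more, and 10 were under 95%, down to 79.7% for Rps4l. Counts of pseudogene and parent are uncertain where few bases separate them, above all at 99% identity and above. Identity was taken on build mm10, and bases at which the CAST/EiJ genome differs from that build were not examined.

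Pseudogenes without reads were far more diverged. Among processed types, 132 of the pseudogenes with reads had a matched parent, at a median identity of 99.78%, and 89.4% of them were at 99% or more. The 8743 matched processed pseudogenes with no read had a median of 88.67% and 3.31% at 99% or more. Among the 3981 of those with a parent above 100 CPM (reads per 1000000 reads of annotated nuclear genes), 2.21% were at 99% or more. The 414 with a read but under the minimum lay between, at a median of 98.33%.

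The share with 3 or more reads in each library was highest at the highest identities, as the plot of identity shows. It was 97 of 327 processed pseudogenes (29.7%) at 99.5% to 100% identity, 21 of 234 (8.97%) at 99% to 99.5%, and 7 of 440 (1.59%) at 98% to 99%. Below 98% it was 7 of 8288. The median level of the parents was between 73.7 and 96.2 CPM in these bins. Parent level also went with having reads: its median was 182.5 CPM for the 132, 136.2 CPM for the 414 under the minimum and 79.8 CPM for the unread, and its part in the counts was not tested.

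**Figure D1:**
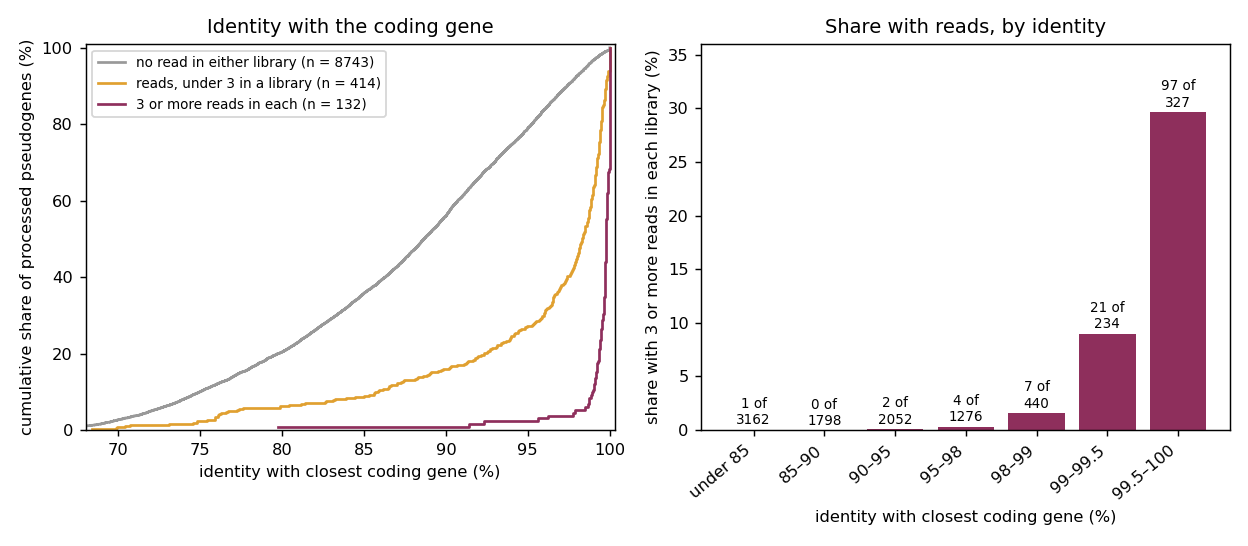
Left, cumulative share (%) of processed pseudogenes against identity (%) with the closest coding gene, for those with 3 or more reads in each library (132), with fewer reads (414) and with none (8743). Right, share (%) with 3 or more reads in each library per identity bin, with the counts above each bar: the share is 1 of 3162 under 85%, 0 of 1798 at 85% to 90%, and 29.7% at 99.5% to 100%.

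Most of these pseudogenes had kept the parent's reading frame. Among the 132, 122 covered at least 95% of the parent's coding sequence, and 114 of these 122 had no in-frame stop and no gap that shifts the frame. Among the unread ones, 3308 of 8743 covered it to that extent and 659 of the 3308 were open. In 68 of the 132 (51.5%) the annotated pseudogene was as long as the parent's coding sequence and matched nearly all of it in frame. The same held for 3.68% of the unread. Among the 68 are Gm12671, Gm14303 (a copy of Rps29) and Gm8783 (a copy of Ptp4a1, a phosphatase), each annotated from start codon to stop codon only. Identity, frame and annotated span were not used to choose the list, but the part that similarity to the parent plays in the read counts was not tested.

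Copies of ribosomal protein genes formed the largest of the families listed. The 157 pseudogenes took 11062 reads in replicate 1 and 4127 in replicate 2, or 8678 ± 662 CPM (SD, n = 2). The 57 copies of cytosolic ribosomal protein genes, from 44 parents, held 5574 and 1485 of these reads. Their summed level was 4609 CPM in replicate 1 and 2954 CPM in replicate 2. The 7 copies of Gapdh and Pgk1, both of glycolysis, held 928 and 715 reads, and Gm10123 and Hsp25-ps1, copies of the folding genes Ppia and Hspb1, held 1093 and 286, nearly all in Gm10123. Copies of genes for oxidative phosphorylation (symbols in Atp5, Cox or Nduf) numbered 7, with 449 and 147 reads. Cyp21a2-ps was the single copy of a gene on the list of steroid synthesis genes. The families were lists of gene symbols and left 65 matched pseudogenes ungrouped, some with related roles. Examples were Gm9755 (from the mitochondrial elongation factor gene Tufm, 87 and 20 reads) and Gm4735 (closest to the enolase gene Eno1b, 43 and 24). Another was Cbx3-ps7 (from the chromatin protein gene Cbx3, 41 and 20).

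Within the ribosomal family, copies of genes for both subunits had reads. Gm10243, a copy of Rpl35a, had 260 and 64 reads, Rpl37rt 310 and 71, and Rps19-ps6 275 and 77, the last beside 283 and 93 in Rps19. Gm9843, identical to Fau (which encodes a small-subunit protein fused to a ubiquitin-like domain), had 204 and 49 reads beside 279 and 68. The ribosomal copies of this list shared their parents' near-complete sequence, at a median identity of 99.71%, and Gm15607 (from Rpl35, at 91.4%) and Rps4l (at 79.7%) lay farthest below it. Rps4l had 31 and 14 reads beside 327 and 107 in Rps4x. Among copies of mitochondrial respiratory genes, Gm12338, from the cytochrome oxidase gene Cox7c, had 204 and 48 reads beside 486 and 101. BC002163, from the complex I gene Ndufs5, had 79 and 29 reads beside 114 and 29. Outside the families, Gm12138, from the aldose reductase gene Akr1b3, had 148 and 71 reads, while Akr1b3 had 213 and 78. Ppp1ccb, from the phosphatase subunit gene Ppp1cc, had 95 and 35 reads beside 211 and 79. A few near-copies carried a single in-frame stop, among them Gpx4-ps2 (72 and 15 reads) and Gm9794 (from Rpl23, 26 and 7).

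Levels spanned more than 2 orders of magnitude between pseudogenes. The median mean level was 23.5 CPM, 21 pseudogenes exceeded 100 CPM on average, and 16 had exactly 3 reads in replicate 2. Since a long read counts once whatever its transcript's length, CPM was compared between genes without division by length. Whether the libraries favoured some transcript lengths was not examined. Gm10123, on chr9:96895658-96896147 of the plus strand, led with 895 CPM in replicate 1 and 539 CPM in replicate 2. Next came Gm12671 at 314 and 519 CPM. Rpl3-ps1, a copy of the gene for a large-subunit protein, stood at 360 and 374 CPM, the closest agreement among the leaders. Gm10698, from Tmed2 (a cargo receptor of the early secretory pathway), had 349 and 296 CPM. Gm8172, from Rps6, had 321 and 223 CPM, and Rps2-ps13, from Rps2, had 260 and 229 CPM. The order of these leaders beyond the first is not settled by 2 libraries, since Gm12671 led the others named here except Gm10123 in replicate 2 and was below Rpl3-ps1, Gm10698 and Gm8172 in replicate 1. The remaining leaders with a mean between 136 and 212 CPM were Gm12033, Gm14303, Gm5559, Cyp21a2-ps, Eif4a-ps4, Rpl37rt, Rps19-ps6, Gm10243 and Mpc1-ps, the last a copy of a subunit of the mitochondrial pyruvate carrier.

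**Figure D2:**
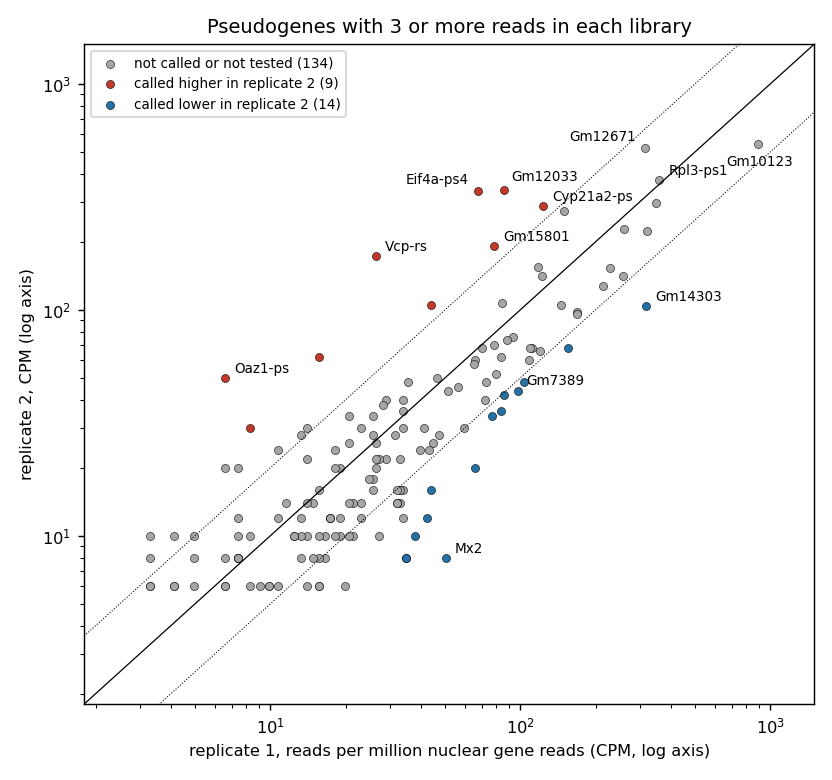
Level of each of the 157 pseudogenes in replicate 1 and replicate 2 (CPM, log axes), with the line of equal levels and dotted lines at 2-fold. Coloured points passed the test between libraries: 9 were higher and 14 lower in replicate 2.

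Gapdh was the parent with the largest deficit in reads against its pseudogenes. The gene itself had 8 reads in replicate 1 and 9 in replicate 2, and its 5 pseudogenes together had 820 and 675, or 99.03% (95% Clopper-Pearson interval 98.1% to 99.6%) and 98.7% (97.5% to 99.4%) of the reads of both. Gm12671 had 380 and 261 reads, Gm5559 181 and 137, Gm12033 104 and 170, Gm7336 102 and 54, and Gm13394 53 and 53. Each of the 5 alone had more reads than Gapdh in both libraries. All 5 were at 99.76% identity or more. Its other pseudogenes had a median of 89.3%, but the closest of them also reached 100%. Of the 235 pseudogenes matched to Gapdh, 216 had no read. Gapdh is a gene that most cells transcribe strongly, and whether molecules of Gapdh were placed on its copies was not tested.

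Other parents showed the same order. Rpl21 had 16 and 3 reads against 402 and 94 in its 3 pseudogenes Rpl21-ps15, Gm13370 and Gm10163, and Rpl17 had 15 and 6 against 89 and 36 in 2. Rpl35a had 88 and 34 reads against 337 and 79 in 4, and Rpl30 had 35 and 10 against 125 and 24 in Gm12191. Xpot had 28 and 4 reads against 118 and 22 in Gm7389, and this pair is not a near-copy, at 95.6% identity with 2 gaps that shift the frame. In all, 14 of 123 parents had fewer reads than their pseudogenes in both libraries, and 19 of the 147 pseudogenes alone exceeded their parent in both. For Cyp2a21-ps (17 and 7 reads) and Gm10259 (32 and 13 reads) the closest coding gene was listed at 0 in both libraries.

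Most pseudogenes stayed below their parents. The median share of a pseudogene in the reads of itself and its parent was 20.3% in replicate 1 and 20.4% in replicate 2. Ppia had 1185 and 312 reads beside 1083 and 271 in Gm10123, 47.8% (45.7% to 49.8%) and 46.5% (42.4% to 50.6%) for a copy that is identical over its whole length. Tmed2 had 489 and 191 reads beside 422 and 149 in the identical Gm10698. Oaz1, which encodes an inhibitor of polyamine synthesis, had 1869 and 768 reads beside 8 and 25 in Oaz1-ps. Where a parent had 5 or more pseudogenes (77 parents), the most-read one was also the closest in sequence, or tied for it, in 61, and among the 3 closest in 71. Across 144 pairs with parent reads in both libraries, Spearman's rho of mean CPM between pseudogene and parent was 0.08. The genes are of the same 2 libraries and are not independent of each other. The pseudogenes were chosen by these reads, and counts of near-identical pairs are uncertain. The value therefore cannot settle whether the levels go together.

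**Figure D3:**
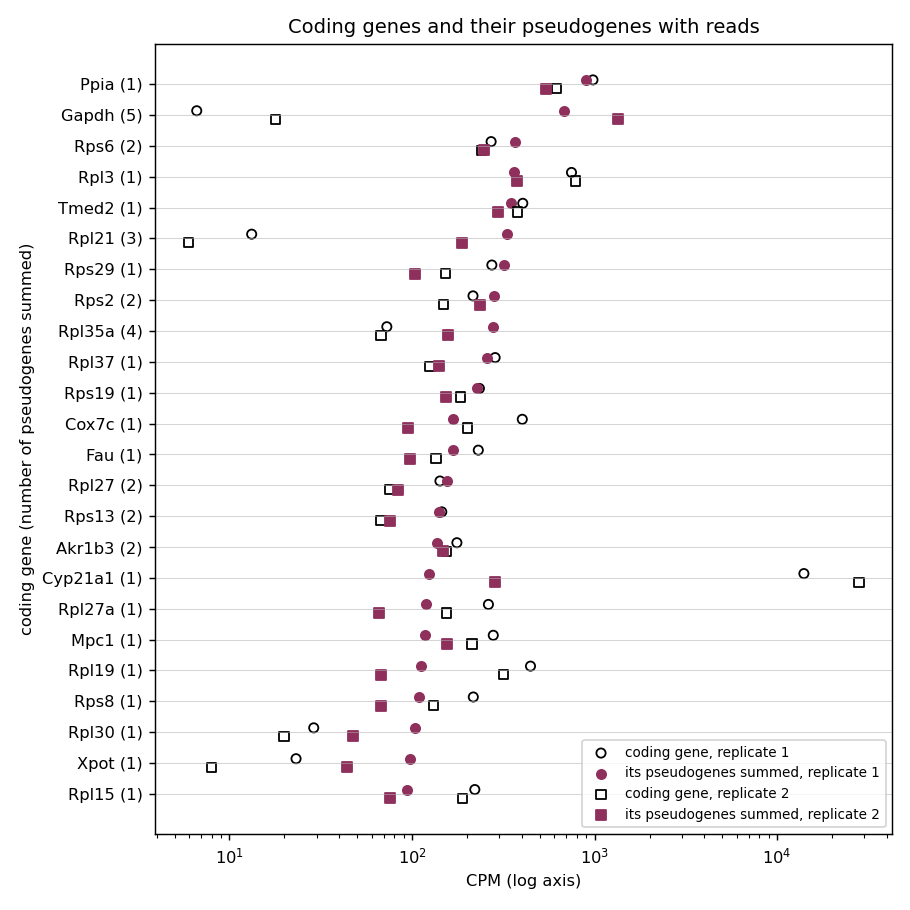
Level (CPM, log axis) of 24 coding genes (open symbols) and of their pseudogenes with reads, summed (filled symbols), in replicate 1 (circles) and replicate 2 (squares), for the parents whose pseudogenes had the most reads in replicate 1. For Gapdh, Rpl21, Rpl35a, Rpl30 and Xpot the filled symbols lie to the right of the open ones in both libraries, and for Cyp21a1 they lie far to the left.

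Copies of 4 mitochondrial genes stood side by side. Gm28437 (from mt-Co3), Gm10925 (mt-Atp6), Gm28661 (mt-Co2) and Gm29216 (mt-Co1) lie within chr1:24613189-24616197 on the minus strand, and the first 3 are identical to the mitochondrial genes. Gm28437 had 30 and 9 reads against 31 and 3 for mt-Co3, and Gm10925 had 33 and 11 against 30 and 12 for mt-Atp6. Gm28661 had 20 and 4 against 14 and 7 for mt-Co2, and Gm29216 had 23 and 5 against 222 and 110 for mt-Co1. In replicate 1 the first 3 had counts close to those of the mitochondrial genes, and Gm29216 had far fewer than mt-Co1.

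By exon number, 132 pseudogenes had 1 annotated exon and 25 had several, while 142 of the 147 with a parent had one with several exons. The authors' model classes describe how each read's model relates to the annotation. They are annotated, incomplete splice match (part of a longer chain of introns) and new in catalog (mainly known splice sites in a new combination). The others are new not in catalog (with new splice sites) and genomic (none of these). Introns of an incomplete match are not always annotated: in 1 such chain of Cyp21a2-ps (8 and 1 reads), 1 of 2 introns was. Annotated models took 96.2% ± 1.40 (SD, n = 2) of the pseudogenes' reads, against 79.2% ± 3.85 for protein-coding genes. All reads lay in annotated models for 124 pseudogenes, 120 of them with a single exon.

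Single-exon genes of both kinds had high shares. Single-exon pseudogenes had 99.7% ± 0.0736 of their reads in annotated models and 322 single-exon protein-coding genes had 98.7% ± 0.112. The 25 multi-exon pseudogenes had 73.3% (70.6% to 75.9%) in replicate 1 and 56.9% (52.1% to 61.6%) in replicate 2. Rpl37rt alone, a copy of Rpl37 on chromosome 5 with all of its 310 and 71 reads in annotated models, held much of that annotated share. Unprocessed, polymorphic and untyped pseudogenes together had 53.9% and 42.1%. A total of 11 pseudogenes had no read in an annotated model, among them Gm3608 (17 and 15 reads) and B330016D10Rik (17 and 11 reads), all of whose reads were genomic.

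**Figure D4:**
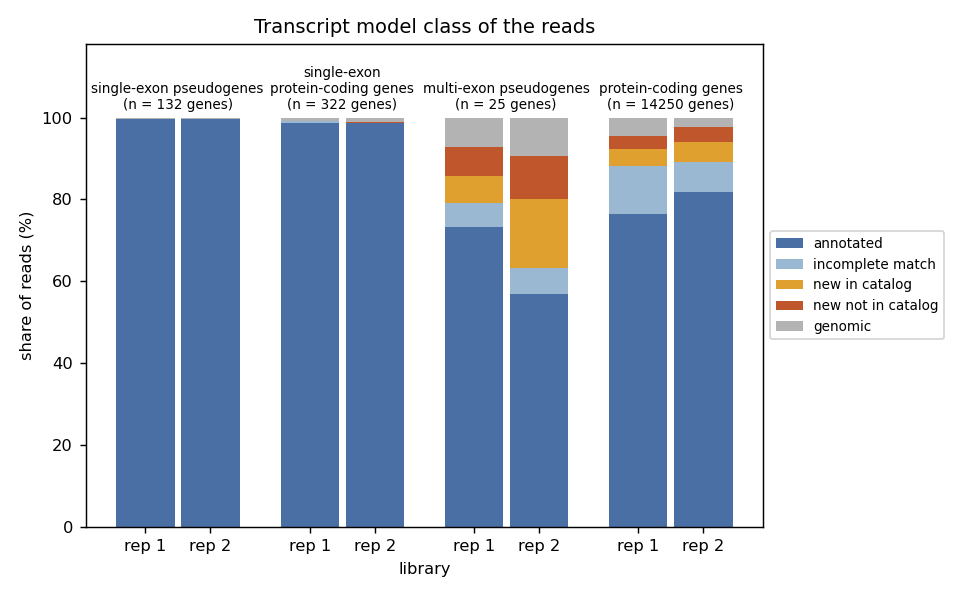
Share of reads (%) in each model class, in each library, for single-exon and multi-exon pseudogenes with reads beside single-exon and all protein-coding genes. Annotated models fill nearly all of the single-exon bars and 73.3% and 56.9% of the multi-exon pseudogene bars.

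Cyp21a2-ps was the most-read pseudogene of the unprocessed type. It lies on chr17:34719813-34722252, minus strand, with 9 annotated exons, and matches Cyp21a1 at 97.38% identity over 85.5% of its length with 1 in-frame stop. It had 149 and 144 reads, which is 0.871% (0.737% to 1.02%) and 1.01% (0.853% to 1.19%) of the reads of itself and Cyp21a1 (16959 and 14111 reads). Its exons overlap exons of Tnxb on the opposite strand. Whether reads of Cyp21a1 were placed on Cyp21a2-ps was not tested. The annotated chain of exons took 58 and 63 reads. The other spliced reads fell into 59 further chains, of which 16 appeared in both libraries with 64 and 56 reads in all. By class, 28 and 8 reads of the gene were incomplete splice matches, 39 and 50 new in catalog and 24 and 23 new not in catalog. The leading chain besides the annotated one (18 and 17 reads, new in catalog) had 8 exons and kept the intron of 114 bases between annotated exons 5 and 6. The next (11 and 12 reads, new not in catalog) began its second exon 99 bases early and ran from annotated exon 6 into exon 7 without splicing. The 4 most-read chains besides the annotated one, both of these included, ended 371 bases beyond the annotated end, as drawn in the exon plot. These are ends of models, and where the reads of the annotated chain ended was not examined.

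**Figure D5:**
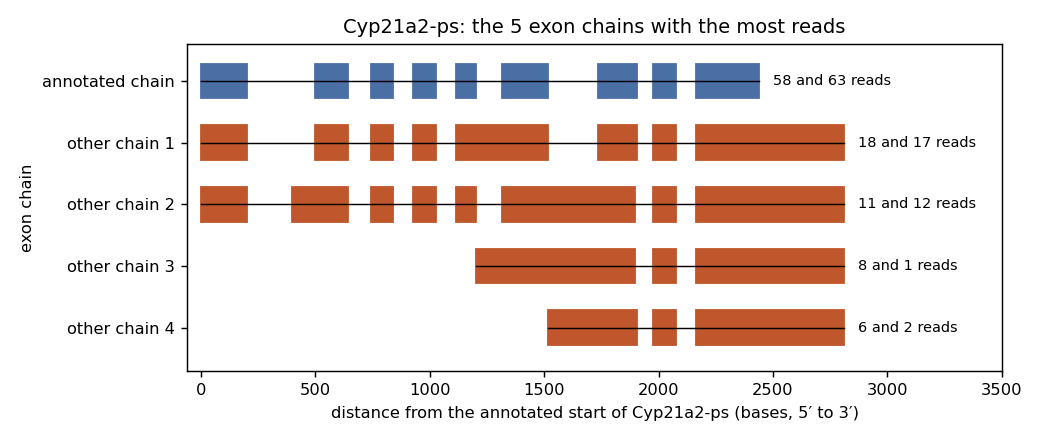
Exons (boxes) and introns (lines) of the 5 chains of Cyp21a2-ps with the most reads, by distance from the annotated start in bases. Numbers at the right are reads in replicate 1 and replicate 2; the first chain below the annotated one lacks 1 annotated intron, the last 2 are incomplete splice matches, and all 4 run past the annotated end.

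Reads in new spliced models were also found in other pseudogenes with several annotated exons. New in catalog or not in catalog models appeared in 19 pseudogenes, all of them among the 25 with several annotated exons. Gm21811 had 8 and 7 reads in the former class and 11 and 5 in the latter, and 0 in annotated models. With Gm21092 (13 and 3 reads), 2610005L07Rik (25 and 17) and 6820431F20Rik (8 and 3), it lies in 1 cluster on chromosome 8, and each has a stretch that matches Cdh11, a cadherin gene. The leading chain of 2610005L07Rik, an incomplete match of 5 exons, had 11 and 8 reads. Ube2d-ps had 4 and 7 reads in new combinations of known sites. Outside these classes, Cyp2a21-ps, at 88.2% identity with Cyp2a5, had 10 and 6 genomic reads in 1 chain of 3 exons that used no annotated intron. Gm7389 is annotated with 1 exon, yet 13 and 5 of its reads, also of the genomic class, shared an intron.

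No coding gene matched over 50% of the length of 10 pseudogenes. They include Mx2, an interferon-induced GTPase gene annotated as polymorphic, with 61 and 4 reads. Hyi, a polymorphic pseudogene with 9 annotated exons, had 38 and 14 reads and most of them, 34 and 11, in annotated models. H2-Ea-ps, a class II major histocompatibility gene, had 15 and 5 reads, and H2-T10, of the class Ib genes, had 4 and 3. Among all 157, 92 overlapped no other annotated gene, 6 overlapped an exon of another gene on the same strand and 15 an exon on the opposite strand.

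Between the libraries, 23 of 150 tested pseudogenes passed the call (Benjamini-Hochberg adjusted p under 0.05 in Fisher's exact test, two-sided, and at least 2-fold), 9 higher and 14 lower in replicate 2. That is to be read beside 9.55% of the 10170 genes tested. Higher calls were 5.96% and lower calls 3.59% of those genes. The median log2 ratio (replicate 2 over replicate 1) was -0.38 for the pseudogenes and -0.06 for all genes. The test compares 2 libraries and not 2 conditions, the minimum of 3 reads in each library bounds the ratios, and in tissue RNA fewer cells of a type and less RNA per cell cannot be told apart. Summed adrenal cortex markers were 52080 and 67128 CPM and chromaffin markers 11580 and 6677 CPM in replicates 1 and 2. Summed adipocyte markers were 7188 and 7283 CPM, above the chromaffin markers in replicate 2. Macrophage markers were 569 and 613 CPM and red blood cell markers 923 and 583 CPM. The part of any of these cell types in the ratios was not tested.

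Copies of ribosomal protein genes were the bulk of the lower calls. Of 57 tested, 10 were lower and 0 higher, their median log2 ratio was -0.72, and 49 had a ratio below 0. Their 44 parents had a median of -0.58, with 5 called and 0 of them higher. Gm14303 had 386 and 52 reads, a log2 ratio of -1.61 ± 0.21 (SE, counting only). Gm13370 had 187 and 34 reads (-1.18 ± 0.27), and Gm12191 had 125 and 24 (-1.09 ± 0.32). The others lower were Rps23-ps1, Gm11518, Rps3a2, Gm10275, Gm15710, Gm10288 and Rps27a-ps2, between -1.01 and -1.97. Lower calls outside that family were Mx2 at -2.51 ± 0.70, Gm10175 (from Atp5g2, a subunit of ATP synthase), Gm7389, and Gm12481 (from Serf2).

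The higher calls came from varied parents. Eif4a-ps4, from the helicase gene Eif4a1, had 82 and 169 reads, a log2 ratio of 2.31 ± 0.19, and Eif4a1 itself had 129 and 243 reads (2.18 ± 0.16). Cyp21a2-ps had a ratio of 1.22 ± 0.17 and Cyp21a1 of 1.00 ± 0.02. Gm15801 had 95 and 96 reads (1.28 ± 0.21), and Ptp4a1, which is annotated as 2 overlapping genes, had 369 and 375. In these pairs pseudogene and parent differed between the libraries in the same direction.

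Other pairs differed in direction or size. Vcp-rs, a copy of the gene for a protein-unfolding ATPase, had 32 and 87 reads (2.70 ± 0.30) while Vcp had 1490 and 424 (-0.55 ± 0.08). Oaz1-ps had a ratio of 2.85 ± 0.57 and Oaz1 one of -0.02 ± 0.06. Of the Gapdh copies, Gm12033 (1.97 ± 0.18) and Gm13394 (1.27 ± 0.28) passed the call, while Gm12671 (0.73 ± 0.12) and Gm5559 (0.87 ± 0.16) had adjusted p-values of 4.0e-08 and 6.3e-06 by the same test but were under 2-fold, and Gm7336 was at 0.36 ± 0.24. Gapdh itself was at 1.43 ± 0.68 on its 8 and 9 reads, with an adjusted p of 0.19 in the same Fisher's exact test. Copies of 1 parent could differ: of the identical copies of Atp5g2, Gm10231 had 19 and 31 reads (1.96 ± 0.42) and Gm10175 had 80 and 10 (-1.67 ± 0.47), while Atp5g2 had 113 and 35 (-0.41 ± 0.28). Hsp25-ps1, from the small heat-shock gene Hspb1, was the remaining higher call, with 10 and 15 reads. Across 133 pairs with both tested, the log2 ratios of pseudogene and parent had a Pearson r of 0.46 and a Spearman rho of 0.40, over pairs that share the libraries and in part the parent.

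Near the minimum of 3 reads in each library the list is thinly supported. Just inside lay Gm10557 (4 and 3 reads), H2-T10 (4 and 3) and Gm11223 (5 and 3). Just outside lay 1700086L19Rik, 1810014B01Rik and Gm12115, each with 2 and 2. Depth was 1209457 reads of annotated nuclear genes in replicate 1 and 502655 in replicate 2, so a count of 0 allows a level of up to 2.48 CPM and 5.97 CPM, in counting error only. Levels up to those limits are thus possible for the 12840 pseudogenes without a read.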

How the data were processed

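Long-read RNA sequencing was made of 2 adrenal libraries. For each library the authors deposited whole-number read counts of transcript models, with the models themselves (coordinates on mm10, GENCODE M21, with models attributed to TALON per the file headers). The sources used here name neither aligner nor platform. The counts were not normalised. Each annotated gene's counts were added over its models of every class, and CPM was taken over reads of annotated nuclear genes. The parent of a pseudogene was the protein-coding gene whose transcript gave the best match in blastn 2.17.0 (word size 16, e-value 1e-10) over at least 50% of the pseudogene; genes matching equally well had their reads summed. Frames were read from pairwise alignments in Biopython 1.88. Libraries were compared per gene by Fisher's exact test (SciPy 1.17.1) over genes with at least 10 reads in both together, with Benjamini-Hochberg adjustment over all, and log2 ratios had 0.5 reads added. Intervals are Clopper-Pearson at 95% and, like floors of 3 counts, cover counting error only. Alternatives used TMM (edgeR 4.0.16) and median-of-ratios scaling (DESeq2 1.42.0), other minimums, fewer model classes and single libraries. The test and the frame reading were tested on simulated data. The list and its families were chosen with earlier results of these data known. Genes named were the 15 highest by mean CPM, every one called between libraries, the 5 highest relative to the parent, the 5 with the most new spliced reads, unprocessed types among the top 30, copies of steroid synthesis genes and those nearest the minimum; a few others illustrate the counts and were chosen after their values were seen. Amino acid sequences were not used here.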

Additional observations from a re-analysis of the deposited data

Results flagged for a closer look

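Reads of new genes on the opposite strand, which enter no pseudogene count, passed the limit that a count of 0 allows (3 reads) in both libraries at 3 of the pseudogenes. Opposite Gm15801 there were 44 reads in replicate 1 and 5 in replicate 2, opposite Gm8783 there were 50 and 6, and opposite Ptges3-ps (a copy of the co-chaperone gene Ptges3) there were 39 and 5. For comparison, Gm15801 itself had 95 and 96 reads, Gm8783 9 and 5, and Ptges3-ps 6 and 5. At least 1 such read was found opposite 21 of the 157 pseudogenes in either library and opposite 5 in both, 156 and 20 reads in all. The origin of these reads was not tested.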

How the results depend on the processing

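The number of pseudogenes moved with the minimum: 295 had at least 1 read in each library and 80 at least 10, and the rule applied to 1 library at a time gave 162 (replicate 2) to 302 (replicate 1). It stayed between 126 and 152 with a minimum of 5, annotated models only or no genomic models. The summed level was 8210 CPM in replicate 2 alone and 9146 CPM in replicate 1 alone. Under the other alternatives it lay between 8296 and 8676 CPM, beside 8678 CPM in the main setting. The share of reads in annotated models was 100% as a median over pseudogenes in place of 96.2% over reads, and 95.2% to 97.2% with 1 library. Calls between libraries numbered 35 with no minimum fold and 19 to 25 under the other alternatives; of the 23, Rps23-ps1 lost its call with TMM scaling (log2 ratio -0.997) or 1 added read (-0.99), and none reversed. The count with a parent was 137 to 151, and that of pseudogenes above their parent 19 to 25. No paired analysis was possible because there is 1 group. Leaving out a library leaves no comparison between libraries. Depth limits mainly replicate 2, where the median pseudogene had 10 reads.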
